A study of Homo sapiens with 18 samples.

Results

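RPMI-8402, a human line of T-cell acute lymphoblastic leukaemia (T-ALL), was studied here after knockout (KO) of PIK3R1, which encodes p85alpha, the partner that stabilises and restrains the catalytic part of phosphoinositide 3-kinase. A pair of inhibitors of NOTCH signalling were set directly against each other in these cells: 3 KO libraries treated with CB-103 and 3 KO libraries treated with the gamma-secretase inhibitor LY3039278 (GSI), each for 24 h. They are 6 of the 18 libraries of the series, and 17346 of 58735 genes had enough reads to be tested. KO cells given the vehicle DMSO (3 libraries) show on which side of vehicle each inhibitor lay, and cells with a non-targeting control guide (NT) under CB-103 and under GSI (3 libraries each) give the same gap in cells with intact PIK3R1. The sources used here give no doses, and leave unstated whether the KO cells were a pool or 1 clone and whether each replicate was its own culture. P-values thus cover the spread among these libraries alone, and a difference between the inhibitors cannot be told apart from a difference in effective dose.

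NOTCH1 is cut at the membrane first by an ADAM protease and then by gamma-secretase, and the freed intracellular part joins the DNA-binding protein RBPJ and a MAML co-activator to switch on genes such as HES1, DTX1 and MYC. A gamma-secretase inhibitor prevents the second cut, while CB-103 is described as blocking the assembly of the transcription complex. The compounds are not analogs of each other. Some of the genes below belong to stress pathways: the unfolded protein response, in which the sensors IRE1, PERK and ATF6 raise chaperones of the endoplasmic reticulum (ER), and the amino acid response, in which ATF4 raises amino acid transporters, synthetic enzymes and tRNA synthetases.

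Library totals ran from 30416183 to 43558387 estimated reads over the series. Within the 9 KO libraries the first principal component (42.9% of the variance) set the 3 CB-103 libraries apart from GSI and DMSO, and the second (18.1%) set replicate 1 of each group apart from replicates 2 and 3. T lymphoblast markers summed to 803.4-843.6 CPM (counts scaled to library size) in KO CB-103 and 1028-1081 CPM in KO GSI, and of its 6 genes PTCRA did not pass the count filter. Of the 4 B-cell, 5 myeloid, 4 erythroid and 4 adherent-cell markers, 3, 2, 1 and 2 passed the filter. Their sums in KO CB-103 against KO GSI were 2.37-3.32 against 3.85-5.64 CPM for B cells, 32.5-40.3 against 7.92-8.82 for myeloid cells, 0.259-0.939 against 0.312-0.598 for erythroid cells and 2.70-5.09 against 8.72-12.3 for adherent cells. The myeloid sum was almost wholly CD68, a lysosomal protein, while CD14, CSF1R and MPO did not pass the filter, and the part of other cells in the results was not tested. In bulk RNA, fewer cells of a type and less RNA per cell cannot be told apart.

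PIK3R1 itself (chr5:68215720-68301821, hg38) stood at 25.9, 29.9 and 27.6 CPM in KO CB-103, at 27.4, 32.2 and 23.9 CPM in KO GSI and at 23.1, 21.4 and 23.2 CPM in KO DMSO. The KO groups under the inhibitors overlapped (log2 fold change 0.00±0.09 SE, edgeR adjusted p = 1). KO libraries still held RNA of the gene, and its protein is not part of these data. In NT cells PIK3R1 stood at 30.9, 33.5 and 29.1 CPM under CB-103 and at 50.7, 57.1 and 53.05 CPM under GSI, so its gap differed between the genotypes (0.78±0.12, adjusted p = 0.00053).

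How far the inhibitors differed in KO cells was asked over all genes with a quasi-likelihood F test of edgeR on all 18 libraries, and a gene was called at a Benjamini-Hochberg adjusted p under 0.05. Of 17346 genes, 8302 (47.9%) were called between KO CB-103 and KO GSI, 4292 (24.7%) higher and 4010 (23.1%) lower with CB-103. The change was at least 2-fold for 1700 (9.8%), and the median log2 fold change over all genes tested was 0.015. Without replicate 1 of any group the count was 7625. In 9284 genes (53.5%) the 3 KO CB-103 libraries did not overlap the 3 KO GSI libraries. List counts between the KO inhibitors below are to be read beside the shares of 24.7% higher and 23.1% lower.

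Most of the gap lay with CB-103. Against KO DMSO, CB-103 called 8432 genes (48.6%) and GSI 3341 (19.3%), and both comparisons share the 3 DMSO libraries. Calls of at least 2-fold made up 9.87% of all genes tested with CB-103 and 1.86% with GSI. Of the 4292 genes higher with CB-103 than with GSI, 2755 (64.2%) were also above DMSO with CB-103 while GSI was not called against DMSO. Both inhibitors were above DMSO for 329 (7.67%) and both below for 88 (2.05%). Another 317 (7.39%) were above DMSO with CB-103 and below it with GSI, and 273 (6.36%) were below DMSO with GSI while CB-103 was not called. Of the 4010 lower genes, 2147 (53.5%) were below DMSO with CB-103 while GSI was not called, 461 (11.5%) were below with CB-103 and above with GSI, and 407 (10.1%) were below DMSO with both inhibitors. GSI alone was above DMSO for 419 (10.4%), and both were above for 46 (1.15%). Neither inhibitor was called against DMSO for 530 of the higher (12.3%) and 530 of the lower genes (13.2%).

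**Figure D1:**
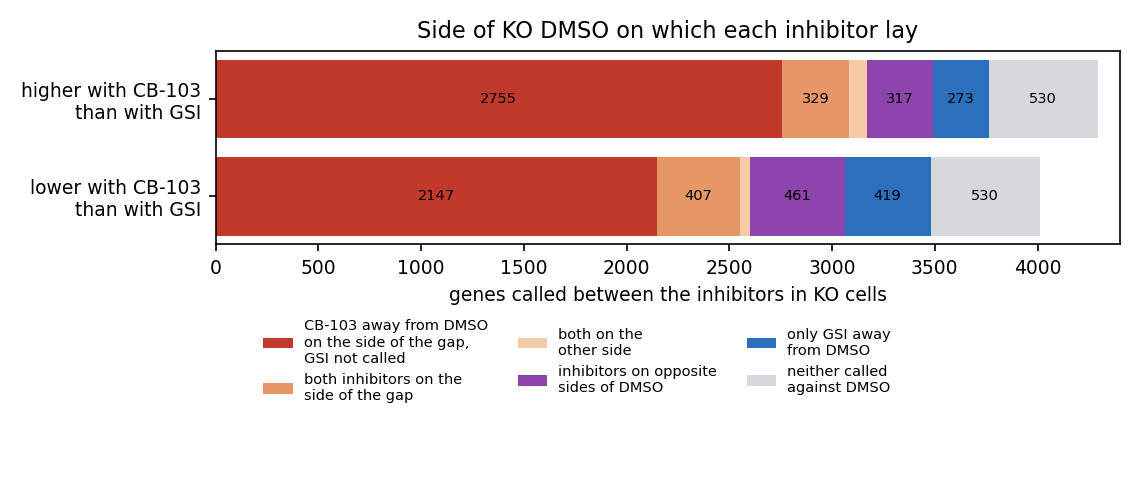
Genes called between KO CB-103 and KO GSI, counted along the horizontal axis in 2 bars, one for each direction, and split by the side of KO DMSO on which each inhibitor was called. The longest segment of both bars, 2755 and 2147 genes, holds genes that left DMSO with CB-103 and were not called with GSI.

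Most direct NOTCH targets were low under both compounds. The list of 19 had 14 tested members, of which 12 fell against KO DMSO with CB-103 (23.7% of all genes fell there) and 12 fell with GSI (9.58% of all genes), with medians of -1.47 and -1.43 log2 units. LZTFL1, a gene of ciliary transport, was the 1 member above KO DMSO with CB-103. Between the inhibitors 5 members were higher (24.7% of all genes were) and 4 lower (23.1% of all genes) with CB-103, with a median of 0.10. HES4, a repressor of the HES family, stood at 14.8, 17.7 and 15.96 CPM in KO CB-103, at 4.56, 5.34 and 5.29 CPM in KO GSI and at 55.3, 54.4 and 57.9 CPM in KO DMSO. The CB-103 libraries lay between the other groups without overlap, 3.19-fold above GSI (1.67±0.09, adjusted p = 6.3e-11). DTX1, a ubiquitin ligase that binds NOTCH, had the same order, at 17.98, 16.6 and 18.2 CPM in KO CB-103, 8.62, 8.60 and 9.98 CPM in KO GSI and 79.5, 79.0 and 83.0 CPM in KO DMSO (0.96±0.09 between the inhibitors, adjusted p = 8e-08). CR2, the complement receptor, was likewise higher with CB-103 than with GSI (1.36±0.08). LZTFL1 stood at 208, 186 and 205 CPM in KO CB-103, at 95.8, 97.7 and 99.9 CPM in KO GSI and at 135.7, 136.4 and 135.1 CPM in KO DMSO, so that the inhibitors lay on either side of vehicle (0.56 with CB-103 against DMSO, adjusted p = 1e-08, and 1.03±0.04 between the inhibitors).

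HES1, the repressor most often read as a NOTCH target, stood at 14.4, 12.2 and 13.9 CPM in KO CB-103, at 10.9, 10.1 and 9.45 CPM in KO GSI and at 82.3, 68.7 and 67.9 CPM in KO DMSO. It was 1.33-fold higher with CB-103 than with GSI (0.41±0.10, adjusted p = 0.0019), without overlap. MYC, the growth-driving transcription factor, went the other way, at 27.6, 25.3 and 26.5 CPM in KO CB-103 and 37.0, 34.6 and 34.6 CPM in KO GSI (-0.42±0.07, adjusted p = 5.8e-05), against 122.5, 103.7 and 103.6 CPM in KO DMSO. NOTCH1 was lower with CB-103 as well, at 186, 191 and 181 CPM against 279, 282 and 293 CPM with GSI (-0.61±0.06, adjusted p = 7.5e-08). The growth factor receptor IGF1R (0.19±0.08, adjusted p = 0.074), NOTCH3 (-0.31±0.16, adjusted p = 0.13) and the interleukin receptor gene IL7R (0.74±1.13, adjusted p = 0.63) were not called. IL7R reached at most 0.704 CPM in any of the 9 KO libraries.

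The promoters of HES1 and HES4 are shown because both genes are textbook targets of the complex. RefSeq's GRCh38.p14 windows give the 250 bases before each start, and capitals mark TGGGAA, the core that RBPJ binds, searched on both strands. The HES1 window lies at chr3:194135898-194136147 on the plus strand and the HES4 window at chr1:1000098-1000347 on the minus strand.
HES1: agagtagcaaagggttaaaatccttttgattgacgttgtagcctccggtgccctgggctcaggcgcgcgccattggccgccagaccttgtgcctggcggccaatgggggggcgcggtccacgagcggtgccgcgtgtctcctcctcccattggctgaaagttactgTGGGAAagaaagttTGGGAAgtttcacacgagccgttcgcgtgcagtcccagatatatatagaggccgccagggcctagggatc
HES4: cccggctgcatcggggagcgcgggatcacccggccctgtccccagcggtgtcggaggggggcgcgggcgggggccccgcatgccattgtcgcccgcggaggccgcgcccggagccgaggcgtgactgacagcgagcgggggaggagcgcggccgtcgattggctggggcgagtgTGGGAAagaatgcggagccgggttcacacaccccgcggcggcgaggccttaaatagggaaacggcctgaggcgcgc
The HES1 window held 2 such cores and the HES4 window 1. The core is common: 28.1% of the 27305 genes with a promoter window (250 bases before to 50 after the start) hold it, against 5 of 16 NOTCH targets. Tested genes that hold it were higher with CB-103 than with GSI in 28.4% of cases, beside 27.7% of all tested genes with a window.

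Genes that make and process the receptor were also compared. Of 22 tested receptors, ligands and processing genes 12 were higher and 4 lower with CB-103 than with GSI (median 0.29). ADAM17, a protease that sheds membrane proteins, was higher (1.15±0.05), with NUMBL (1.198±0.12), a relative of the NOTCH inhibitor NUMB. LFNG, which adds sugars to NOTCH, was lower (-2.41±0.24), at 0.300, 0.381 and 0.345 CPM in KO CB-103 and 1.73, 1.87 and 1.89 CPM in KO GSI. Of the 13 genes of the transcription complex 2 were higher, CCNC (0.77±0.06) and CREBBP (0.30), and 7 lower, among them the acetyltransferase gene KAT2B (-0.65±0.10), MAML3 (-0.44±0.09) and RBPJ (-0.29±0.06).

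ER chaperones and genes of the unfolded protein response had the largest list median. All 25 tested of 26 members were higher with CB-103 than with GSI and none was lower, with a median of 1.98. They were also above KO DMSO with CB-103 in 25 of 25 (24.9% of all genes were), while GSI gave 4 higher (9.69% of all genes) and 5 lower. HERPUD1, which acts in the degradation of ER proteins, stood at 287, 310 and 278 CPM in KO CB-103, at 21.0, 19.9 and 22.4 CPM in KO GSI and at 30.3, 32.9 and 32.9 CPM in KO DMSO. CB-103 thus exceeded GSI 13.8-fold (3.79±0.08, adjusted p = 3.8e-16), with GSI below DMSO (-0.60). DNAJB9, a co-chaperone, was 3.25±0.08 higher, the disulphide isomerase PDIA4 2.66±0.07 and DNAJC3, an inhibitor of eIF2alpha kinases, 2.41±0.05. The sensors themselves moved less, with ERN1 (IRE1) at 1.77, EIF2AK3 (PERK) at 1.45 and ATF6 at 0.32, all called. These sensors and the promoter genes HSPA5, XBP1, CRELD2, CHAC1 and ASNS below were picked after their values were seen.

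IRE1 cuts a short intron out of XBP1 messenger RNA in the cytosol, which shifts the reading frame and gives the active factor. The deposited transcript estimates separate both forms, so the share of XBP1 TPM in transcripts lacking this 26-base stretch (chr22:28796124-28796149, minus strand, GENCODE 29, GRCh38) was taken in each library. The 26 bases are in capitals in the unspliced form, with 20 bases on either side.
Unspliced XBP1: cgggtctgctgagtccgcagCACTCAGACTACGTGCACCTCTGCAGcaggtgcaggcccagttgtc
Spliced XBP1: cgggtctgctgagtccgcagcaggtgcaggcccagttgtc
The spliced share was 76.2%, 75.2% and 76.8% in KO CB-103, 5.12%, 4.59% and 8.50% in KO GSI and 18.6%, 10.2% and 18.5% in KO DMSO. CB-103 exceeded GSI by 70.0 points with no overlap, and GSI lay below DMSO in every library. In NT cells the means were 89.0±0.59% under CB-103 and 6.99±2.7% under GSI (SD, n = 3). With 3 libraries against 3, the exact two-sided permutation test of the KO inhibitors gave p = 0.10, the smallest it can give, and these shares are Salmon estimates, not junction counts. The XBP1 gene as a whole was 1.62-fold higher with CB-103 than with GSI (0.70±0.05, adjusted p = 1.5e-09).

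**Figure D2:**
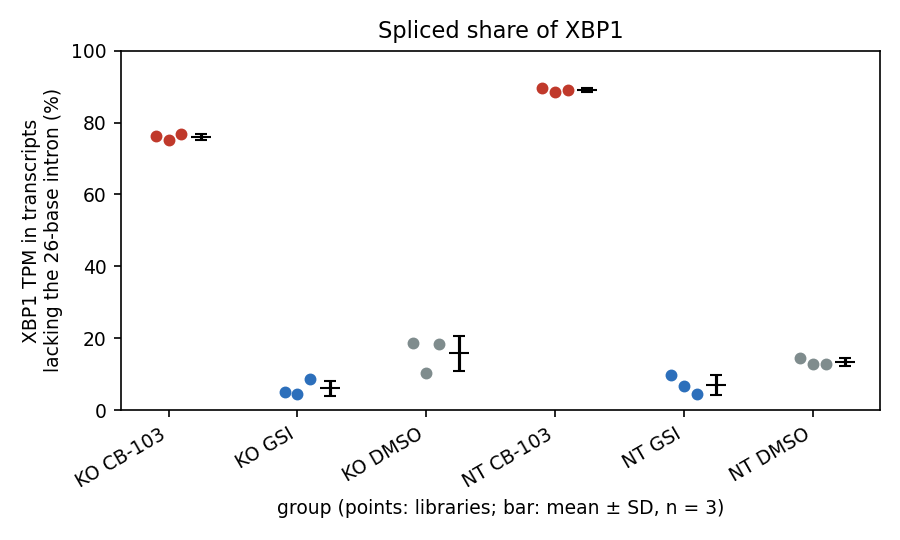
Share of XBP1 TPM in transcripts that lack the 26-base intron, in percent, for each library of 6 groups, with the mean and SD of 3 beside the points. The 3 KO CB-103 libraries lie at 75.2-76.8% and the KO GSI libraries at 4.59-8.50%.

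The ER stress element, to which ATF6 binds with NF-Y, consists of CCAAT and CCACG with 9 bases between them. It was searched in both strands of the promoter windows, after the gene results were known. Capitals mark it in the windows of HSPA5, the major ER chaperone BiP (chr9:125241344-125241593, minus strand), of XBP1 (chr22:28800570-28800819, minus strand) and of CRELD2, a secreted ER protein (chr22:49918384-49918633, plus strand, where it lies on the other strand).
HSPA5: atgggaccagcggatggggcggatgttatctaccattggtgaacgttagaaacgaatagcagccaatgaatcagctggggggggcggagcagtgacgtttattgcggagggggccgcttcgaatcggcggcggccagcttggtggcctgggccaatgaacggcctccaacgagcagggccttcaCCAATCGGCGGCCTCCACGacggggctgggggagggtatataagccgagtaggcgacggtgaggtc
XBP1: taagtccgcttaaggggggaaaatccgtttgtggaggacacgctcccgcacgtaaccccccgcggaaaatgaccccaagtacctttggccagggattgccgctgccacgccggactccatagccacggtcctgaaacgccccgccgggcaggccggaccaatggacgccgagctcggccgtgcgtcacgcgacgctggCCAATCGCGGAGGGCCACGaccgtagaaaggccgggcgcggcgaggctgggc
CRELD2: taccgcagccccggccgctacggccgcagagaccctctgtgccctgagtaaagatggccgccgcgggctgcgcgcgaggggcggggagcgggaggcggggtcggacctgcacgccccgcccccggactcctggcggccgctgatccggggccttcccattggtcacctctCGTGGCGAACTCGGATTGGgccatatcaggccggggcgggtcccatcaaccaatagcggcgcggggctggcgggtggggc
HSPA5 stood at 3084, 2497 and 3044 CPM in KO CB-103, at 302, 283 and 283 CPM in KO GSI and at 331, 310 and 325 CPM in KO DMSO, 9.93-fold apart between the inhibitors (3.31±0.08). CRELD2 differed 6.96-fold (2.80±0.09). The exact element occurs in 0.0916% of all 27305 genes with a window and in 8 of 23 list members with one. Of the tested genes, 15 hold it, of which 14 were higher with CB-103 than with GSI and 0 lower, beside 27.7% higher among all 11608 tested genes with a window. Outside the list these were SERP1 (1.51±0.06), FICD (2.32±0.10), ALG12 (1.04±0.14), TRIM5 (0.83±0.07), EIF2A (0.57±0.04) and TMEM120A (0.38±0.12), and ZNF17 was not called (-0.04±0.12). The 15 genes stand on 13 promoter regions, since ALG12 shares its element with CRELD2 and EIF2A with SERP1. The 8 list members that hold it were already counted above as higher. Other motifs were searched in the same windows, with shares closer to that of all genes. Of 58 tested genes with the heat shock element, 32.8% were higher and 24.1% lower. The share higher was 31.9% for the antioxidant response element, 30.6% for the AP-1 site, 29.5% for the sterol element and 28.6% for the E-box. A match is a description of the letters, not evidence of binding.

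The amino acid response was higher with CB-103 in nearly every member. Of 34 tested genes 31 were higher and 0 lower (median 1.26). Against KO DMSO 30 were higher with CB-103 (24.9% of all genes were) and 0 lower (23.7% of all genes). With GSI 1 was higher (9.69% of all genes) and 23 were lower (9.58% of all genes). DDIT3, the stress transcription factor CHOP, stood at 195, 193 and 218 CPM in KO CB-103, at 7.63, 8.37 and 8.63 CPM in KO GSI and at 8.68, 8.82 and 9.25 CPM in KO DMSO, a 24.6-fold gap (4.62±0.08, adjusted p = 6e-17). SLC7A11, the cystine importer, stood at 189, 174 and 195 CPM in KO CB-103, at 5.25, 4.40 and 3.94 CPM in KO GSI and at 10.97, 10.6 and 13.0 CPM in KO DMSO. Its gap was 41.0-fold (5.36±0.13), with GSI below DMSO (-1.34). ATF5 (4.09±0.07), the glycine transporter SLC6A9 (4.02±0.14) and PPP1R15A, the phosphatase subunit that restores translation (3.46±0.08), were also among the steepest. ATF4 itself was 2.80-fold higher (1.49).

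ASNS, the asparagine synthetase gene and a standard ATF4 target, was not called. It stood at 0.899, 2.82 and 2.01 CPM in KO CB-103, at 2.53, 2.30 and 3.02 CPM in KO GSI and at 3.52, 2.55 and 1.00 CPM in KO DMSO (-0.45±0.39 between the inhibitors, adjusted p = 0.37). CHAC1, which degrades glutathione, stood at 18.1, 19.0 and 20.7 CPM in KO CB-103 and 1.82, 2.1 and 1.57 CPM in KO GSI (3.39±0.13, adjusted p = 5.9e-13). Both promoter windows hold the C/EBP-ATF response element TGATGNAA, in capitals, at chr7:97872409-97872658 (minus strand) and chr15:40953221-40953470 (plus strand, element on the other strand).
ASNS: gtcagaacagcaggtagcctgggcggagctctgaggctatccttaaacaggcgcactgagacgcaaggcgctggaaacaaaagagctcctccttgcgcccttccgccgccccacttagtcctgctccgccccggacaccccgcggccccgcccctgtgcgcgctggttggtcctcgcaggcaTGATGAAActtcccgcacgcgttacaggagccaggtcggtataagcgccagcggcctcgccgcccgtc
CHAC1: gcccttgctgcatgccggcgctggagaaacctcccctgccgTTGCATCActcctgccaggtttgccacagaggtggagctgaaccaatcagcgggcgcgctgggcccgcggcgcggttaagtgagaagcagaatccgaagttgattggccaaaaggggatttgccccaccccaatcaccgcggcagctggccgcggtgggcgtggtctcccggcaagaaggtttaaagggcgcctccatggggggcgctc
The element occurs in 4.46% of all genes with a window, in 9 of 28 amino acid response genes and in 7 of 16 cytosolic tRNA synthetases. Over all 331 tested genes that hold it, 32.0% were higher with CB-103 and 24.5% lower, beside 27.7% and 26.4% of all tested genes with a window.

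Of 20 cytosolic tRNA synthetases 14 were higher and 3 lower with CB-103 than with GSI (median 0.61). WARS1, the tryptophan enzyme, led with 262, 241 and 267 CPM in KO CB-103 against 51.9, 48.8 and 47.2 CPM in KO GSI (2.38±0.05), ahead of AARS1 (1.53±0.07), IARS1 (1.51±0.04) and CARS1 (1.09±0.05). The 3 lower with CB-103 than with GSI were VARS1, HARS1 and QARS1, at -0.37, -0.23 and -0.17. CB-103 had 12 of the 20 above KO DMSO (24.9% of all genes were) and 3 below (23.7%), with a median of 0.165. GSI had 16 of the 20 below DMSO (9.58% of all genes were) and 1 above (9.69%), with a median of -0.343.

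Proteasome subunits were higher in 30 of 31 members, none lower (median 0.89), with PSMA4 not called. PSMC4, an ATPase of the regulatory particle, stood at 208, 188 and 230 CPM in KO CB-103 and 83.0, 75.8 and 84.7 CPM in KO GSI (1.36±0.07). Against KO DMSO all 31 were higher with CB-103 (24.9% of all genes were). With GSI 1 was higher (9.69% of all genes) and 2 lower (9.58% of all genes).

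Cytosolic heat shock proteins were higher in 12 of 16 and lower in 2 (median 0.66). HSPA1B (3.33±0.10) and HSPA1A (3.08±0.10) led, but they are near-identical copies whose reads cannot be parted with certainty. DNAJB1, their co-chaperone, stood at 458, 406 and 484 CPM in KO CB-103 and 141, 146 and 142 CPM in KO GSI (1.65±0.06), and HSPH1 was higher too (1.53±0.08). The lower ones were HSPB1 and the mitochondrial HSPE1 (-0.74 and -0.28). CB-103 had 9 of the 16 above KO DMSO (24.9% of all genes were) and 2 below (23.7%), with a median of 0.425. GSI had 9 of the 16 below DMSO (9.58% of all genes were) and 0 above (9.69%), with a median of -0.262.

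NRF2 target genes, which supply glutathione and store iron, were higher in 15 of 18 and lower in 3 (median 0.76). FTL, the ferritin light chain, stood at 3173, 2893 and 3251 CPM in KO CB-103 and 992, 1006 and 935 CPM in KO GSI (1.67±0.06). MAFG, the NRF2 partner (1.496±0.06), and GCLC, of glutathione synthesis (1.07±0.06), were higher, and TXN, PRDX1 and ABCC1 lower (-0.23, -0.21 and -0.18). The steepest members besides SLC7A11 were scarce, with the haem oxygenase HMOX1 at 0.510, 0.557 and 0.748 CPM in KO CB-103 and at most 0.0298 CPM in KO GSI, and OSGIN1 at 2.43, 2.32 and 2.36 CPM in KO CB-103 and 0.0596, 0.142 and 0.0630 CPM in KO GSI. Among 28 lysosome and autophagy genes 15 were higher and 3 lower. WIPI1, which acts in autophagosome formation, was 3.42±0.29 higher from low levels. GABARAPL1 (2.44±0.08), CD68 (2.30±0.12), MAP1LC3B (1.42±0.06) and the transcription factor gene TFE3 (1.22±0.06) were higher too.

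Sterol genes were higher in 16 of 23, with 0 lower (median 0.32). HMGCS1, an early enzyme of the pathway, stood at 190, 176 and 188 CPM in KO CB-103 and 69.3, 70.9 and 70.2 CPM in KO GSI (1.398±0.05), beside the sterol carrier gene STARD4 (1.49±0.07), the sensor INSIG1 (1.29±0.06) and DHCR7 (1.13±0.06). Of 10 fatty acid genes 5 were higher, led by the desaturases SCD (1.57±0.06), FADS1 (1.33±0.15) and FADS2 (1.05±0.07), and 2 lower.

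Chemokines stood out in size. CXCL8, the neutrophil chemokine, stood at 90.1, 87.0 and 104 CPM in KO CB-103, at 0.745, 0.312 and 0.0945 CPM in KO GSI and at 0.201, 0.143 and 0.222 CPM in KO DMSO (7.91±0.28 between the inhibitors, adjusted p = 1.8e-13). CXCL3 followed, at 26.9, 30.01 and 24.0 CPM in KO CB-103 against 0.417, 0.312 and 0.157 CPM in KO GSI (6.48±0.23). Both were nearly absent without CB-103, so their folds rest on few reads in the GSI libraries. Of 13 tested chemokine and NF-kB genes 6 were higher (24.7% of all genes were) and 3 lower (23.1% of all genes), the higher ones including the subunit gene RELB (3.01±0.23) and the inhibitor NFKBIA (1.03±0.10). Over the alternatives 5 to 7 were higher and 0 to 3 lower, with 1 lower under no count filter and 0 without KO GSI replicate 2.

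Of the AP-1 and immediate early genes 4 of 16 tested were higher and 4 lower, near the 24.7% and 23.1% over all genes. JUN stood at 21.7, 20.7 and 21.5 CPM in KO CB-103, at 0.745, 0.823 and 0.787 CPM in KO GSI and at 1.72, 1.07 and 1.28 CPM in KO DMSO (4.75±0.16). KLF6 was higher (1.10±0.06), while BTG2 (-0.80±0.05) and IER2 (-0.86±0.07) were lower. Feedback genes of the MAPK pathway were lower in 4 of 11, namely ETV5 (-1.80±0.14), SPRY1 (-1.51±0.12), SPRED2 (-1.29±0.12) and SPRY2 (-0.60±0.09), and DUSP5 was higher (0.43).

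**Figure D3:**
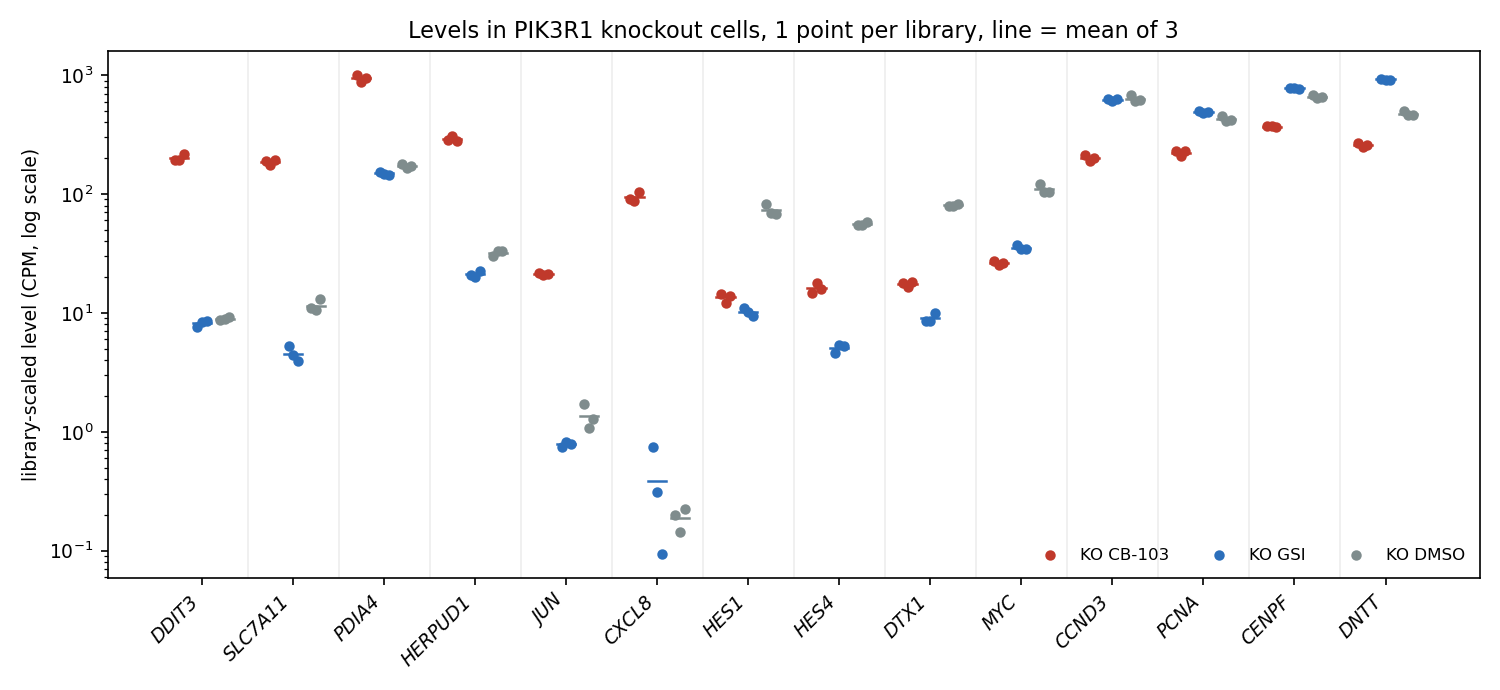
Levels of 14 genes in KO CB-103, KO GSI and KO DMSO from left to right within each gene, in CPM on a log axis, 1 point per library and a line at the mean of 3. Stress genes such as DDIT3, SLC7A11 and CXCL8 are high with CB-103 alone, NOTCH targets such as HES4 and DTX1 are low with both inhibitors, and CCND3 is low with CB-103 alone.

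Cell cycle genes were lower with CB-103. In 28 tested genes of G1/S and DNA replication 22 were lower and 4 higher (median -0.65), and in 28 genes of G2/M and mitosis 27 were lower and 1 higher (median -0.61). CCND3, the D-type cyclin of T-cell leukaemia, stood at 212, 191 and 202 CPM in KO CB-103, at 624, 612 and 632 CPM in KO GSI and at 677, 609 and 621 CPM in KO DMSO, so that GSI and DMSO overlapped and CB-103 was 3.09-fold lower than GSI (-1.63±0.07, adjusted p = 6.4e-12). PCNA, the replication clamp, stood at 230, 210 and 230 CPM in KO CB-103 and 503, 483 and 490 CPM in KO GSI (-1.14±0.06). CCNE2 (-1.47±0.07) and UHRF1 (-1.41±0.07) were lower too, and CENPF (-1.07±0.05) and CDK1 (-0.97±0.05) led the mitotic genes.

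Not all replication genes followed. The origin licensing genes CDC6 and MCM5 were 2.03-fold and 2.33-fold higher with CB-103 than with GSI, CDT1 was 0.32±0.08 and ORC6 0.19 higher in log2 units, and of the mitotic genes CDC20 was higher (0.34). The call of CDT1 was lost with gene sums of the transcript estimates. CB-103 had 1 of the 28 mitotic genes above KO DMSO (24.9% of all genes were) and 23 below (23.7%), while GSI had 17 above (9.69%) and 0 below (9.58%). The kinase inhibitor gene CDKN1A was higher (2.17±0.23), at 6.62, 4.87 and 6.15 CPM in KO CB-103 against 0.954, 1.45 and 1.51 CPM in KO GSI, and CDKN1B was not called (0.12±0.05, adjusted p = 0.076). DNA methylation and Polycomb genes were lower in 12 of 14 and higher in 1, with DNMT3B at -1.04±0.05, DNMT3A at -0.80±0.06 and TET1 at -1.06±0.06.

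Genes of T-cell identity were lower with CB-103 as well. Of 20 tested T-ALL and thymocyte transcription factors 17 were lower and 2 higher (median -0.65), among the lower ones MYB (-0.83±0.06), HHEX (-0.87±0.05), ETV6 (-0.97±0.05) and TAL1 (-0.69±0.05). MYB stood at 412, 389 and 387 CPM in KO CB-103, at 740, 694 and 683 CPM in KO GSI and at 772, 704 and 680 CPM in KO DMSO. Of 25 T-cell receptor and thymocyte surface genes 17 were lower and 0 higher (median -0.59). DNTT, the template-free polymerase of receptor rearrangement, stood at 269, 248 and 260 CPM in KO CB-103, at 933, 915 and 917 CPM in KO GSI and at 499, 458 and 466 CPM in KO DMSO, so that the inhibitors lay on either side of vehicle (-1.83±0.07 between them). The adaptor LAT (-1.31±0.10), the gut-homing receptor CCR9 (-0.88±0.07) and the kinase LCK (-0.47±0.04) were lower.

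Among the steepest falls by the naming rule, between -2.08 and -1.83, the arginine sensor of mTORC1, CASTOR1 (-2.08±0.10), the thymosin gene TMSB15A (-2.07±0.08), the sphingosine phosphate transporter SPNS2 (-2.05±0.08), PAG1, an adaptor that restrains SRC kinases (-2.01±0.13), and HEMGN (-1.89±0.09) were protein-coding, as were KRT1 and NDST3. The others were the antisense gene XXYLT1-AS2 and the pseudogene HNRNPA1P21, whose reads cannot be told apart with certainty from those of its parent gene. With GSI, all of these but KRT1 were called above KO DMSO. By the same rule the 10 steepest rises were CXCL8, CXCL3, SLC7A11, JUN, DDIT3, CLU (4.12±0.32), ATF5, SLC6A9, the pseudogene NMRAL2P (4.02±0.29) and HERPUD1. The rule takes only called genes averaging 5 CPM or more without overlap, so scarcer genes are left out.

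Death and survival genes of the BCL2 family were split, with 3 of 14 higher (24.7% of all genes were) and 7 lower (23.1% of all genes). The BH3-only genes BBC3 (3.44±0.22), at 9.80, 9.74 and 10.99 CPM in KO CB-103 against 0.566, 1.22 and 1.01 CPM in KO GSI, and PMAIP1 (1.43±0.06) were higher, and BCL2 (-1.02±0.09) and BCL2L1 (-0.52±0.05) lower. p53 targets had 6 of 16 higher and 6 lower (median 0.015), beside the same 24.7% and 23.1% over all genes. GADD45A (2.14±0.10) and the death receptor gene TNFRSF10B (1.31±0.08) were among the higher.

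Of 30 tested PI3K-AKT-mTOR genes 8 were higher and 8 lower (median -0.03), near the 24.7% and 23.1% over all genes. The catalytic subunit PIK3CD (-0.89±0.05) and the regulatory subunit PIK3R3 (-0.92±0.06) were lower, and the translation repressor gene EIF4EBP1 higher (0.83±0.05). FOXO targets had 4 of 20 higher (24.7% of all genes were) and 9 lower (23.1% of all genes), with TXNIP (0.95±0.07) above and S1PR1 (-0.78±0.07) below.

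Ribosome biogenesis genes had 8 of 32 higher and 8 lower (median -0.03), near the 24.7% and 23.1% over all genes. Against KO DMSO 23 fell with CB-103 (23.7% of all genes) and 25 with GSI (9.58%). WDR74 (0.92±0.05), GNL3 (0.81±0.06) and TAF1D (0.58±0.05) were higher with CB-103 than with GSI and BOP1 lower (-0.72±0.05). Nucleotide and polyamine genes were lower in 12 of 21, led by SMS (-0.74±0.05), and higher in 4, or in 2 without KO CB-103 replicate 1 and 1 without KO CB-103 replicate 3. Splicing factors were lower in 26 of 37 and higher in 5 (median -0.37), with SRSF7 at -0.90±0.05 and SNRPE at -0.83±0.06. Nuclear genes of the respiratory chain were lower in 19 of 27 and higher in 2 (median -0.31), with NDUFA1 at -0.64±0.06 and SDHA at -0.59±0.07. Of the 13 mitochondrially encoded genes edgeR called 0 (median -0.21), and 0 had an unadjusted p under 0.05. DESeq2 and limma-voom also called 0, while 2 were lower with no count filter and 2 with only the groups compared.

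Of 36 cytosolic ribosomal proteins 1 was higher and 5 lower (median -0.09), fewer than the 24.7% and 23.1% over all genes. Over the alternatives 0 to 2 were higher and 1 to 13 lower, with 1 lower under no count filter, 13 with sums of transcript estimates, 11 without KO CB-103 replicate 3 and 2 without KO GSI replicate 3. The calls of RPL8, RPL19, RPL24 and RPS2 were lost under at least 1 alternative. Glycolysis and hypoxia genes were lower in 13 of 27 (23.1% of all genes were). They were higher in 6 (24.7% of all genes), or in 3 without KO CB-103 replicate 1. VEGFA, the vascular growth factor and also an ATF4 target, stood at 181, 153 and 163 CPM in KO CB-103, 19.4, 17.3 and 17.5 CPM in KO GSI and 37.97, 36.5 and 37.3 CPM in KO DMSO (3.20±0.09). Interferon and MHC class I genes were split, 11 of 24 higher (24.7% of all genes were) and 8 lower (23.1% of all genes), with IFI44 at 1.88±0.07 and OAS3 at -0.68±0.07. Of the small lists, 2 of 3 AHR targets (NQO1, 0.70±0.12, and TIPARP, 0.26±0.08) and 3 of 4 metallothionein and zinc genes (MT2A, 0.45±0.09, SLC30A1, 0.43±0.08, and MTF1, 0.14±0.06) were higher. The calls of TIPARP and MTF1 were lost under at least 1 alternative. Of 8 cholesterol efflux genes ABCA1 was higher (1.06±0.07) and ABCG1 lower (-0.57±0.05) with CB-103 than with GSI. Against KO DMSO, ABCA1 was lower with both inhibitors (-0.77 with CB-103 and -1.84 with GSI). ABCG1 was above KO DMSO with GSI (0.48) and not called with CB-103 (-0.09).

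**Figure D4:**
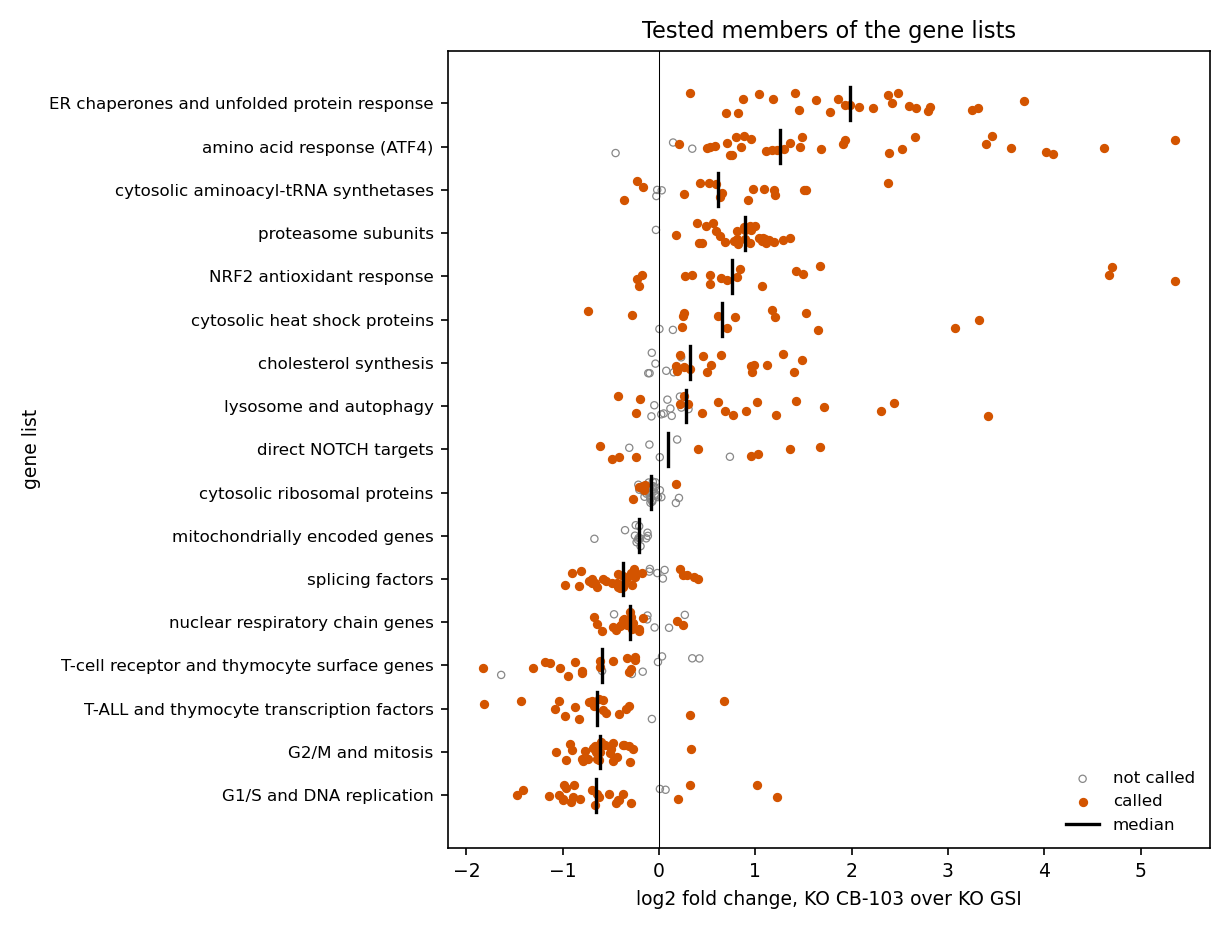
Log2 fold change of KO CB-103 over KO GSI for the tested members of 17 gene lists, 1 point per gene, filled where called, with a bar at the median of the list. ER and amino acid response genes lie to the right of 0, with medians of 1.98 and 1.26, and G1/S genes mostly to the left, with a median of -0.65.

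Whether this gap differs between KO and NT cells was asked by testing the KO gap minus the NT gap, which share no library. With pool or clone unstated, an effect of the genotype cannot be told apart from one of clone or culture. In NT cells 9765 genes (56.3%) were called between CB-103 and GSI. The difference of the gaps was called for 2191 genes (12.6%), 1222 (7.04%) higher and 969 (5.59%) lower, and for 210 (1.21%) at 2-fold or more. The higher count was 782 without NT CB-103 replicate 3 and 784 without NT GSI replicate 3. Of the 2191, 1719 had the same sign in both genotypes and a smaller gap in KO cells, 115 the same sign and a larger gap in KO cells, and 357 opposite signs. Without replicate 1 of any group these were 1502, 86 and 318 of 1906. In 7137 genes (41.1%) KO and NT were both called with the same sign and in 34 (0.196%) with opposite signs. Of all genes tested, 46.3% were called in KO cells with the same sign in NT cells, called there or not. The share of mitochondrially encoded reads also varied in the NT libraries, at 5.47%, 4.73% and 5.47% in NT CB-103 and 5.51%, 1.90% and 3.95% in NT GSI, against 1.89%, 2.69% and 2.13% in KO CB-103 and 2.40%, 2.40% and 2.57% in KO GSI, and its part in these counts was not tested.

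**Figure D5:**
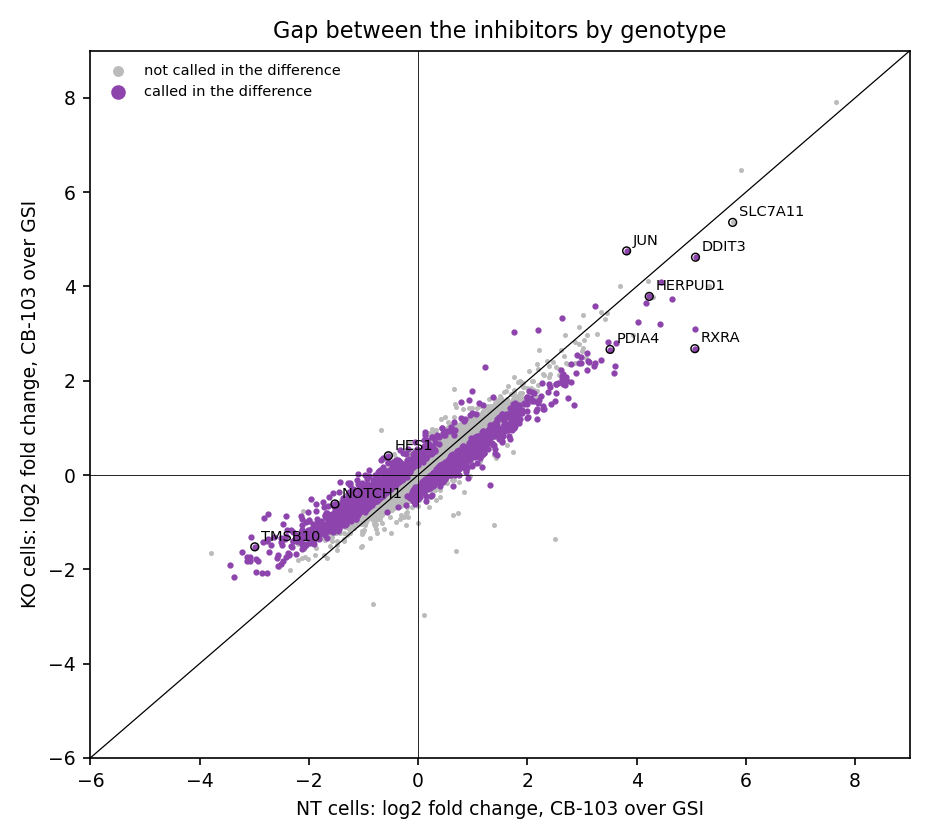
Log2 fold change of CB-103 over GSI in KO cells (vertical) against that in NT cells (horizontal) for 10397 genes that averaged 5 CPM or more in the 6 KO libraries, with genes called in the difference in purple and the line of equal gaps. RXRA lies below the line, at 2.68 in KO cells and 5.07 in NT cells, and TMSB10 above it, at -1.52 in KO cells and -2.99 in NT cells.

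By list, the ER genes had 16 of 25 called in the difference (12.6% of all genes were), all 16 with a smaller gap in KO cells, which 1719 of the 2191 genes called had too. PDIA4 stood at 1009, 878 and 946 CPM in KO CB-103 against 154, 148 and 145 CPM in KO GSI, and at 1969, 1754 and 1927 CPM in NT CB-103 against 175, 163 and 157 CPM in NT GSI. Its gap differed by -0.85±0.09 (adjusted p = 1e-05). G1/S genes had 18 of 28 called, 17 with the same sign and a smaller gap in KO cells. T-ALL transcription factors had 9 of 20 called and T-cell surface genes 10 of 25, above the 12.6% of all genes. All of these had a smaller gap in KO cells, the direction of most genes called in the difference. In the heat shock list 6 of 16 were called, and 5 of them had a larger gap in KO cells, among them HSPA1A (0.89) and DNAJB1 (0.28). The amino acid response had 12 of 34 called, 6 with a smaller and 5 with a larger gap in KO cells.

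The largest departures included RXRA, a nuclear receptor, at 31.3, 29.3 and 30.5 CPM in KO CB-103 against 5.19, 5.02 and 3.97 CPM in KO GSI, and at 13.95, 13.5 and 13.6 CPM in NT CB-103 against 0.426, 0.429 and 0.364 CPM in NT GSI. LPCAT1, a phospholipid enzyme, stood at 102.7, 98.8 and 103.02 CPM in KO CB-103 against 119, 109 and 113 CPM in KO GSI (-0.16±0.05), and at 61.7, 61.0 and 56.6 CPM in NT CB-103 against 144, 144 and 137 CPM in NT GSI. Its small KO gap lost its call without KO GSI replicate 1. CCND3 stood at 168, 146 and 130.4 CPM in NT CB-103 and 921, 1012 and 1021 CPM in NT GSI, so its gap of -2.73 in NT cells exceeded that of -1.63 in KO cells.

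HES1 had gaps of opposite sign. In NT cells it stood at 17.1, 13.8 and 16.1 CPM with CB-103 and 23.7, 22.6 and 22.5 CPM with GSI (-0.55), so the KO GSI libraries were the lowest of the 4 groups and the difference of the gaps was 0.95±0.13 (adjusted p = 0.00017). The other 5 genes named for opposite signs were SYNGR2, CDT1, MAN2B1, SERINC5 and TNRC6B, with KO gaps between 0.23 and 0.56 and NT gaps between -0.68 and -0.18. HES4 and DTX1, by contrast, had the same sign in both genotypes and were not called in the difference (-0.15±0.13, adjusted p = 0.52, and 0.31±0.12, adjusted p = 0.12).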

How the data were processed

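Poly-A RNA of 18 RPMI-8402 libraries was sequenced from a stranded kit, per the labels' protocols. The deposited gene table holds estimated counts rounded to whole numbers by the authors, and the deposited transcript tables hold TPM and estimated counts per transcript. A deposited table of variance-stabilised log2 values served only to check signs: 8302 of 8302 called genes had the same sign there. Salmon 1.4.0, HISAT2 2.2.1, FastQC 0.11.9 and bcl2fastq 2.20 are listed in the submitters' processing notes, with the build hg38 and no roles. How transcripts were summed to genes is not given in the sources used here.

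Counts were fitted in edgeR 4.0.16 (R 4.3.3) with TMM scaling, filterByExpr, 1 mean per group and 12 residual degrees of freedom, and a quasi-likelihood F test with Benjamini-Hochberg adjustment at 0.05. Values after ± are standard errors of log2 fold changes unless SD is given, and CPM use TMM-scaled library sizes. Whether counting used strand is not given in the sources used here, so genes that overlap on opposite strands are uncertain. The fit was also run on simulated counts with the same spread for every gene and no effect of replicate. That run does not cover the replicate effect seen in these libraries. Alternatives were DESeq2 1.42.0, limma 3.58.1 (voom), no count filter, only the groups compared, a replicate block and sums of transcript estimates. Each library apart from those of NT DMSO was also left out in turn, for the comparisons that use its group.

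The members, gene lists and motifs were chosen with earlier results of these data known. Named genes are a fixed set, the 10 steepest rises and falls averaging 5 CPM or more without overlap, up to 4 called members per list with the smallest p, and genes leading the difference between genotypes. Others, such as list members that went against their list, were picked after their values were seen. Promoters are RefSeq windows of 300 bases, matched by symbol for 625 of 792 list genes. Some genes that this rule names are not reported here.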

Additional observations from a re-analysis of the deposited data

Results flagged for a closer look

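The gap between CB-103 and GSI differed between KO and NT cells, by a test of the difference itself in edgeR with Benjamini-Hochberg adjustment, for 2191 genes. Each value below is the KO gap minus the NT gap in log2 units. In PIK3R1 it was 0.78, with no gap in KO cells and a lower level with CB-103 than with GSI in NT cells.

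Among NOTCH-related genes it was 0.95 in HES1 and 0.91 in NOTCH1, and in the cyclin gene CCND3 it was 1.10. NOTCH1 had a gap of -0.61 in KO cells and -1.52 in NT cells. Among stress genes it was -0.46 in DDIT3, -0.70 in DNAJC3, -0.85 in PDIA4 and 0.94 in JUN, whose gap was 4.75 in KO cells and 3.82 in NT cells. The call of JUN was lost without replicate 1 of any group (0.71, adjusted p = 0.061 by edgeR).

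Genes with the smallest p in the difference were LPCAT1 (1.08), TMSB10 (1.47), the calcium pump gene ATP2A3 (1.24), PRDX1 (1.03), the surface antigen gene CD52 (1.6), RXRA (-2.39), the AMPK subunit gene PRKAB1 (-0.81) and N4BP2 (-0.59). TMSB10, an actin-binding thymosin, stood at 173, 184 and 193 CPM in KO CB-103 against 503, 520 and 559 CPM in KO GSI, and at 84.1, 79.9 and 70.8 CPM in NT CB-103 against 582, 669 and 617 CPM in NT GSI. Gaps of opposite sign gave 0.65 in SYNGR2, 1.01 in CDT1, 0.74 in MAN2B1, 0.60 in SERINC5 and 0.83 in TNRC6B. The call of TNRC6B was lost with sums of transcript estimates (0.02, adjusted p = 0.87 by edgeR).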

How the results depend on the processing

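The KO count of 8302 genes between CB-103 and GSI ran from 7722 to 9258 over 7 other fits and from 7598 to 7818 with 1 library left out, with 87.9% to 99.5% of the genes kept, and 86.3% of them kept without replicate 1 in every group; 1 of them changed sign, with sums of transcript estimates. At 2-fold or more it was 1700. Higher calls ran from 3612 to 3996 and lower calls from 3661 to 4127 with 1 library left out, NT calls from 9194 to 9380, KO CB-103 against DMSO from 7685 to 8009 and KO GSI against DMSO from 2472 to 2817. The difference between genotypes, 2191 genes, ran from 1620 to 3129 over 7 other fits and from 1729 to 2176 with 1 library left out. Its higher calls then ran from 782 to 1251 and its lower calls from 726 to 1323. Of the 2191 genes, 69.1% were kept without replicate 1 in every group, 72.1% with only the groups compared and 72.8% with no count filter. The difference was 210 at 2-fold or more, 1939 higher with sums of transcript estimates and 561 lower with only the groups compared. Higher calls made up 55.8% of that difference, and 38.9% to 65.7% over the alternatives; the cause was not tested.

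With a replicate block 8863 genes were called in KO cells and 2897 in the difference. Same-numbered libraries of KO CB-103 and KO GSI correlated at 0.289, 0.071 and 0.126 in their deviations from the group means. Replicate 1 of each KO group also stood apart on the second principal component, so an effect shared by replicate number is visible. The sources used here do not say what same-numbered libraries share, and the main fit used no pairing.

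Of 164 named genes tested, 158 were called, 10 lost their call under at least 1 of 14 settings and none changed sign. Uncalled values that changed sign were PIK3R1 (-0.026 by both DESeq2 settings, -0.075 with sums of transcript estimates, and from -0.098 to 0.119 with a library left out), IGF1R (-0.099 with sums of transcript estimates) and IL7R (from -0.560 to 3.33 with a library left out). NOTCH3, IGF1R and CDKN1B became called under at least 1 setting. Genes near 1 CPM rest on few reads, and the XBP1 share was 69.5 points apart by estimated reads and 73.6 by the most abundant transcript of each form.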
